A study of Mus musculus with 14 samples.

Results

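Expression of 10 homeobox genes of the Hoxa and Hoxb clusters was measured in single mouse haematopoietic stem cells (HSCs): Hoxa5, Hoxa7, Hoxa9, Hoxa10, Hoxb2, Hoxb3, Hoxb4, Hoxb5, Hoxb6 and Hoxb8. They were chosen by name as known targets of Polycomb repression and not by a rule on their values, though earlier results of these data were known. They are 10 of the 25832 genes in the count tables and 10 of 39 mouse Hox genes looked up by symbol. The study compared bone marrow HSCs from Phf19 KO mice with HSCs from a floxed control, by H3K27me3 ChIP-seq, bulk RNA-seq, ATAC-seq and MARS-Seq, and only the MARS-Seq is used here. MARS-Seq sorts single cells into plate wells and counts the 3′ ends of their mRNAs with unique molecular identifiers (UMIs), 1 UMI for each captured molecule. The 4 plates, named 350W, 351W, 352W and 353W, held lineage-depleted bone marrow cells labelled as CD150+CD48- HSCs.

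Genotype is not among the labels of the plates. Cells are split here by the KO or WT prefix of their names in the tables, and each plate holds 96 wells of each. KO cells are taken as Phf19 KO cells, in which the gene for a Polycomb accessory protein is deleted, and nothing says whether WT cells carry the floxed allele of the control mice. The labels do not name the driver of the deletion, the strain, the age or the number of mice. On all 4 plates the WT cells fill the lower well numbers and the KO cells the higher ones, so an effect of genotype and one of position cannot be told apart. Nothing says that the 4 plates came from separate mice, so p-values measure the spread between plates, which may be technical. No 2 kept cells had identical counts.

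Hox genes encode DNA-binding proteins that give cells their position along the body axis, and in blood formation the 5′ genes of the Hoxa cluster are known for their activity in stem and early progenitor cells, which fades as cells mature. Polycomb repressive complex 2 (PRC2) places the repressive mark H3K27me3 over silent Hox clusters, and Phf19 is one of the proteins that guide PRC2 to chromatin. Trithorax proteins such as the methyltransferase encoded by Kmt2a (MLL) hold Hox genes open, and Meis and Pbx proteins bind DNA together with Hox proteins.

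Cells with at least 500 UMIs were kept, which left 716 of 768 wells, 335 of them KO and 381 WT. Summed over kept cells, a plate held between 220821 and 382307 UMIs in KO cells and between 311886 and 510791 in WT cells. The median KO cell had fewer UMIs than the median WT cell in every plate, with 2230 against 3077 in 350W, 3120 against 3806 in 351W, 2552.5 against 2920 in 352W and 4483.5 against 5006 in 353W. Of 9 HSC markers, 8 were on by the rule described below, among them Hlf, Mecom, Procr and Meis1. The remaining marker, Slamf1, which encodes the sorted antigen CD150, had between 0 and 5 UMIs in KO cells and between 0 and 16 in WT cells of a plate. Cd48, whose protein the sort excluded, had 222 counts per 1000000 UMIs (CPM) in KO cells and 195 CPM in WT cells of 352W, and between 0 and 47.0 CPM in the other plates. Phf19 itself had 0, 2, 1 and 0 UMIs in the KO cells of the 4 plates and 1, 0, 0 and 5 UMIs in their WT cells. These counts are too low to check a label, and the tagged 3′ end may lie outside the deletion.

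A gene was called on in these cells where its UMIs, summed over all kept cells of a plate, exceeded 3 in at least 3 of the 4 plates. The limit was set at 3 because a count of 0 allows for a true count of up to 3. By this rule 7 of the 10 genes were on: Hoxa5, Hoxa7, Hoxa9 and Hoxa10 from the Hoxa cluster, and Hoxb2, Hoxb4 and Hoxb6 from the Hoxb cluster. Hoxb3, Hoxb5 and Hoxb8 were not. The rule is lenient, since 55.0% of all genes with a UMI met it, and no sort in these plates gives a cell type known to lack the genes. Wells rich in B cell RNA come nearest to one. At a median of 4388 UMIs, 8 kept wells with over 100 immunoglobulin UMIs held 0 UMIs of the 10 genes among 39913. That is 0 CPM (exact 95% Poisson interval 0 to 92.4). The other 708 kept wells, at a median of 3312.5 UMIs, had 213.5 CPM (exact 95% Poisson interval 196 to 232). The 52 wells left out for low depth had 4 UMIs of the 10 genes among 16463, or 243 CPM (66.2 to 622), so their level cannot be told from that of kept wells. Ighm, a B cell gene, was counted in 98.7% of KO and 100% of WT cells of 352W, in 81.3% of KO and 83.2% of WT cells of 353W, in 0% of KO and 3.16% of WT cells of 350W, and in 0% of both in 351W. How far RNA from other wells adds to the Hox counts was not tested. Of the 7 genes, 3, Hoxa5, Hoxa7 and Hoxa9, met the rule for on under each of 11 settings tried. With at least 10 UMIs required in 3 plates, Hoxa5, Hoxa7, Hoxa9 and Hoxa10 remained on, and so they did in cells thinned to 1500 UMIs each. With 1 plate left out, the rule still asked for more than 3 UMIs in 3 plates, so in all of those left, and was stricter. Without 350W, or without 353W, 4 genes remained on: Hoxa5, Hoxa7, Hoxa9 and Hoxb2.

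Levels are given as CPM of the summed UMIs of a plate and genotype. They count molecules by their 3′ tags and are not divided by transcript length. Averaged over the 8 sums of 4 plates and 2 genotypes, the order of the levels was Hoxa9 at 90 CPM, Hoxa7 at 36.6, Hoxa5 at 22.5, Hoxa10 at 19.2, Hoxb2 at 14.9, Hoxb4 at 9.83, Hoxb6 at 9.16, Hoxb3 at 3.69, Hoxb5 at 3.20 and Hoxb8 at 2.96 CPM. The median gene with a UMI averaged 10.05 CPM, so the 4 Hoxa genes and Hoxb2 lay above it, with Hoxb4 and Hoxb6 just below. Hoxa9 exceeded 91.7% of genes. Hoxa9 was the highest of the 10 in 7 of the 8 sums, and in the WT cells of 351W Hoxa7 was higher. Below Hoxa9, neighbours in this order differed by less than the larger SD over plates of the pair, in KO cells and in WT cells.

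**Figure D1:**
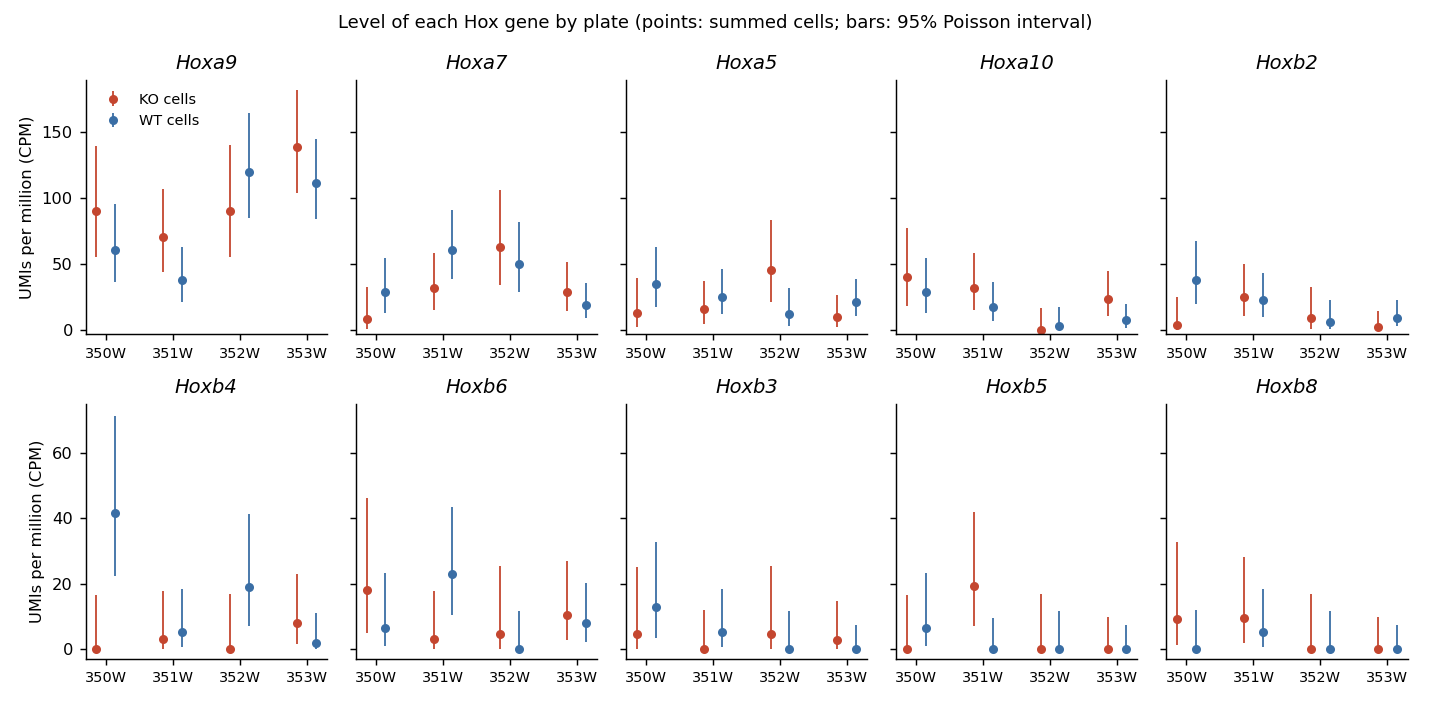
Level of each of the 10 Hox genes (y axis, CPM; upper and lower rows differ in scale) in the KO and WT cells of the 4 plates (x axis). Points are summed cells and bars are exact 95% Poisson intervals, which cover counting error only; Hoxa9 lies between 70.4 and 139 CPM in KO cells and between 38.1 and 120 CPM in WT cells, while Hoxb3, Hoxb5 and Hoxb8 are at 0 in several sums.

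Hoxa9, a homeobox gene of stem and progenitor cells that is also known as a leukaemia oncogene, had 20, 22, 20 and 53 UMIs in the KO cells of 350W, 351W, 352W and 353W, against 19, 15, 38 and 57 in the WT cells. As levels these were 90.2, 70.4, 90.6 and 139 CPM in KO cells and 60.9, 38.1, 120 and 112 CPM in WT cells. Levels of the genotypes overlapped, and in both the lowest was in 351W. A Hoxa9 UMI was counted in 7.61, 15.7, 16.2 and 30% of KO cells and in 15.8, 9.38, 23.2 and 28.4% of WT cells. In the KO cells of 350W the 20 UMIs came from 7 cells, 1 of which held 8, so that the level was above that of the WT cells and the share of cells below it.

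Hoxa7, its neighbour in the cluster and a gene with a known role in progenitor growth, had 2, 10, 14 and 11 UMIs in KO cells and 9, 24, 16 and 10 in WT cells of the plates in the same order. Its levels were 9.02, 32.0, 63.4 and 28.8 CPM in KO cells and 28.9, 60.9, 50.4 and 19.6 CPM in WT cells. KO cells were lower in 350W and 351W and higher in 352W and 353W. Hoxa10, a posterior-class gene beside Hoxa9, had 9, 10, 0 and 9 UMIs in KO cells and 9, 7, 1 and 4 in WT cells. Hoxa10 was nearly missing from 352W in both genotypes, and the WT cells had 3.15 CPM. By the limit of 3 counts, 0 UMIs in KO cells allow a level of up to 13.6 CPM. The exact 95% Poisson interval reaches 16.7 CPM.

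Hoxa5, known in blood cells for its part in the balance between myeloid and erythroid fates, had 3, 5, 10 and 4 UMIs in KO cells and 11, 10, 4 and 11 in WT cells. KO cells were lower in 3 plates and higher in 352W, at 45.3 CPM against 12.6 CPM in WT cells. The Hoxa5 counts are uncertain, because some UMIs were counted for more than 1 gene. All 28 cells with a Hoxa5 UMI also held Hoxa3 UMIs, in 26 of them the same number, and Hoxa3 in turn had counts identical to those of the predicted gene Gm28308 in all 43 of its cells. In RefSeq GRCm38.p6, Hoxa5 (chr6:52201754-52204587) lies within the span of Hoxa3. So up to 58 of the 89 Hoxa3 UMIs may be the same molecules as the 58 of Hoxa5. Hoxa7 (chr6:52215623-52218573) and Hoxa9 (chr6:52223097-52227370) overlap no other RefSeq gene, and Hoxa10 (chr6:52231197-52240854) overlaps a predicted gene that is not in the tables.

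The start regions of these genes differ in CpG sites, which matter here because mammalian Polycomb is known to gather at CpG-rich starts. Windows from 250 bases before to 50 bases after a start were at hand from RefSeq (GRCm38.p6) for 6 of the 10 genes. The windows of 3 genes are shown, as the most and least CpG-rich of them and as a gene that was not on. They are Hoxa9 (chr6:52227321-52227620, minus strand), Hoxa5 (chr6:52204538-52204837, minus strand) and Hoxb8 (chr11:96281655-96281954, plus strand). Each is written 5′ to 3′ on the strand of its gene, and capitals mark each CG, which reads the same on both strands.
Hoxa9: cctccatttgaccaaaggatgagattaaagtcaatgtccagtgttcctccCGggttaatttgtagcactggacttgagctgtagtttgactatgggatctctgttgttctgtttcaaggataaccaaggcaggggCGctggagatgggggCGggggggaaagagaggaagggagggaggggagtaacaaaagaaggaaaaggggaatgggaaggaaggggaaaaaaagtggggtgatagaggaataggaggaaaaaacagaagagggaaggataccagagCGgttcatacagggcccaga
Hoxa5: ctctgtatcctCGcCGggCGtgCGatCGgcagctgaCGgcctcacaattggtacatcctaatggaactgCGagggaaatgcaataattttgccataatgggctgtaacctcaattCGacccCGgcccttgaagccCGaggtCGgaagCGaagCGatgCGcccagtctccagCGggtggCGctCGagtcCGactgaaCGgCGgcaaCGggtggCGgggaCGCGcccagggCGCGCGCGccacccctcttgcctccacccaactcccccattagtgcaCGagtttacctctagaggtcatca
Hoxb8: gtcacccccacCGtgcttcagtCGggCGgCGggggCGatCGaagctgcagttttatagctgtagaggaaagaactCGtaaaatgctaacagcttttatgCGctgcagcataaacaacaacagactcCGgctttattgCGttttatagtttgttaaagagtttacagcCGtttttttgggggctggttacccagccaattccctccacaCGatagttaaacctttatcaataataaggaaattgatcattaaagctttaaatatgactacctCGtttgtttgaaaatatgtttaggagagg
The Hoxa9 window holds 4 CG sites, the Hoxa5 window 29 and the Hoxb8 window 13. Hoxa7 had 9 sites, Hoxb4 had 14, and the 2 listed starts of Hoxa10 had 12 and 21. Of the 7 windows, 5 held at least 10 sites, as did 43.5% of 32851 windows of the same length. The gene with the highest level, Hoxa9, had the fewest sites, and Hoxa7, next in level, had the next fewest. Hoxa5, next in level after Hoxa7, had the most. Among other Hox genes, Hoxa13, Hoxa6, Hoxa3, Hoxa11, Hoxb1 and Hoxa2 had 45, 26, 20, 15, 10 and 9 sites. In the same order they had 0, 1, 89, 0, 0 and 4 UMIs in kept cells. These are descriptions of the windows and were tested against nothing.

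Among the Hoxb genes, Hoxb2, an anterior-class gene known for hindbrain patterning, had the most UMIs. It had 1, 8, 2 and 1 UMIs in KO cells and 12, 9, 2 and 5 in WT cells, and KO and WT cells overlapped. Hoxb4, known for expanding HSCs when it is forced on, had 0, 1, 0 and 3 UMIs in KO cells and 13, 2, 6 and 1 in WT cells. Its levels averaged 2.76 ± 3.71 CPM in KO cells and 16.9 ± 18.1 CPM in WT cells (SD, n = 4 plates each), with the KO cells lower in 3 plates and higher in 353W. One WT cell of 350W, with 2712 UMIs in all, held 8 of the 26 Hoxb4 UMIs. Hoxb6 had 4, 1, 1 and 4 UMIs in KO cells and 2, 9, 0 and 4 in WT cells, and 5 of the 9 in the WT cells of 351W came from 1 cell.

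The 3 Hoxb genes that were not on had 9, 8 and 7 UMIs in all. Hoxb3 had 1, 0, 1 and 1 UMIs in KO cells and 4, 2, 0 and 0 in WT cells, never more than 1 in a cell. Hoxb5, reported in mouse as a marker of long-term HSCs, had 6 UMIs in the KO cells of 351W, from 3 cells, 2 in the WT cells of 350W, and 0 in the other 6 sums. Hoxb8, which is known to hold myeloid progenitors in growth when forced on, had 2 and 3 UMIs in the KO cells of 350W and 351W and 0 and 2 in their WT cells. Neither Hoxb5 nor Hoxb8 is listed in the tables of 352W and 353W, where they were taken as 0. In 353W, the deepest plate, the limit of 3 counts at 0 UMIs is 7.85 CPM in KO cells and 5.87 CPM in WT cells. The exact 95% Poisson intervals reach 9.65 and 7.22 CPM, so absence cannot be read from these counts.

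Hoxb4 (chr11:96318267-96321638) lies within the span of Hoxb3 (chr11:96307101-96347930), and Hoxb2 and Hoxb3 both overlap the noncoding gene Hoxb3os. No cell held both Hoxb3 and Hoxb4 UMIs. Hoxb3os was counted in 29 cells, of which 4 were among the 9 cells with Hoxb3 and 5 among the 31 with Hoxb2. Whether the counting used the strand is not given in the sources used here, so reads of antisense partners cannot be told apart.

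The UMIs of Hoxa5, Hoxa7 and Hoxa9 lay together in fewer cells than those of most genes of like abundance. Hoxa5, Hoxa7, Hoxb4 and Hoxa9 had 2.07, 2.00, 2.00 and 1.88 UMIs per cell that held any, a measure looked at after the values were seen. Over the 12427 genes with 20 to 250 UMIs the median was 1.27 and the 90th percentile 1.66. The measure rises with the UMIs of a gene. Its 90th percentile was 1.61 at 45 to 65 UMIs, where Hoxa5 lies, and 1.65 at 65 to 100, where Hoxa7 lies. It was 1.73 at 150 to 250 UMIs, with Hoxa9 near the upper edge at 244, and 1.90 at 250 to 400. Without the 1 cell that held most, Hoxa5, Hoxa7 and Hoxa9 had 1.93, 1.92 and 1.83, while Hoxb4 had 1.5 over its other 18 UMIs. Hoxa10 had 1.53 UMIs per such cell, Hoxb6 1.32 and Hoxb2 1.29, each below 1.66. The HSC markers Hlf, Meis1 and Mecom, which have more UMIs, had 1.99, 1.79 and 1.56.

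Other developmental factors known as Polycomb targets gave another pattern. Of a list of 50 such factors, 28 had a UMI and 8 met the same rule for on: Pax2, Pax3, Pax6, Pax9, Gata4, Tbx3, Tbx15 and Wt1. Gata4, a heart and gut factor, had 111 UMIs, more than each of the Hox genes but Hoxa9. Its UMIs were spread over 97 cells, at 1.14 per cell that held any. The 8 factors of the list with 20 to 250 UMIs ranged between 1 and 1.14. They are those on, but with Lhx5 (21 UMIs, not on) in place of Tbx3 (17 UMIs). The share of UMIs that lay in cells with at least 2 of the gene ranged between 0 and 25.2% for those factors. For the 7 Hox genes it ranged between 36.0 and 72.4%. Its median over the 12427 genes with 20 to 250 UMIs was 36.1%, close to Hoxb6 at 36.0% and Hoxb2 at 37.5%. In that range of UMIs it lay between 40.25 and 63.6% for 9 PRC2 genes. For 10 trithorax and MLL genes it lay between 29.2 and 65.05%. What the scattered single UMIs of the Polycomb target factors stem from was not tested. Of the 29 other Hox genes, 15 had a UMI and 4 were on. Hoxa3, with the counts it shares with Hoxa5, had 2.07 UMIs per cell that held any, while Hoxc5, Hoxd3 and Hoxd8 had 1.03, 1.08 and 1.09. The other 11 with a UMI (Hoxa2, Hoxa4, Hoxa6, Hoxc6, Hoxc8, Hoxc9, Hoxc10, Hoxc13, Hoxd1, Hoxd4 and Hoxd11) had between 1 and 4 UMIs each.

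**Figure D2:**
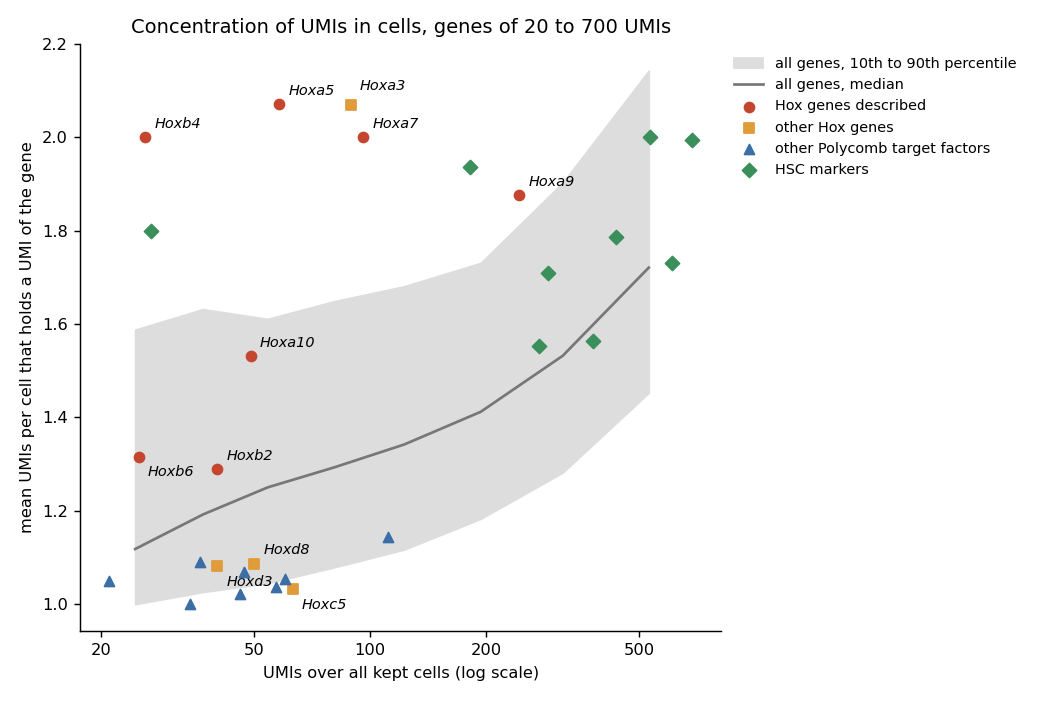
Mean UMIs per cell that held at least 1 UMI of the gene (y axis) against the UMIs of the gene over all kept cells (x axis, log scale). The line and grey band are the median and the 10th to 90th percentile of all genes; Hoxa5, Hoxa7, Hoxb4 and Hoxa9 lie between 1.88 and 2.07, above the band (Hoxb4 at 1.5 without 1 cell), and the other Polycomb target factors of 20 or more UMIs lie between 1 and 1.14.

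The 2 clusters differed between plates. The 4 Hoxa genes summed to 153, 150, 199 and 201 CPM in the KO cells of 350W, 351W, 352W and 353W and to 154, 142, 186 and 161 CPM in the WT cells. The 6 Hoxb genes summed to 36.1, 60.8, 18.1 and 23.5 CPM in KO cells and to 106, 60.9, 25.2 and 19.6 CPM in WT cells. The Hoxb sums rest on 8, 19, 4 and 9 UMIs in KO cells and on 33, 24, 8 and 10 in WT cells. In both genotypes the Hoxb sum was higher in 350W and 351W than in 352W and 353W, but on few UMIs in KO cells. Of the 33 UMIs in the WT cells of 350W, 8 were Hoxb4 UMIs of 1 cell. Hoxb5 and Hoxb8 count as 0 in 352W and 353W, where they are not listed. Over both genotypes the Hoxa genes made up 66.7, 70.6, 89.6 and 89.3% of the UMIs of the 10 genes.

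Some markers of other cells differed between the same pairs of plates, and others did not. The 5 multipotent and lymphoid progenitor markers summed to 85.7, 64.0, 1023 and 976 CPM in KO cells and 32.1, 76.1, 970 and 985 CPM in WT cells. Flt3, a receptor of multipotent progenitors that HSCs are known to lack, had 18.0, 6.40, 367 and 154 CPM in KO cells and 0, 30.5, 368 and 170 CPM in WT cells. The 8 B cell markers ranged between 45.1 and 8437 CPM in KO cells and between 89.8 and 11760 CPM in WT cells, with both highest values in 352W. The 7 neutrophil markers summed to 194, 438, 453 and 555 CPM in KO cells and 241, 535, 582 and 538 CPM in WT cells. In these sums 350W alone was low, and S100a8 was at 0. Single genes differed from the sum. Over both genotypes, Mpo had 0, 0, 100 and 173 UMIs in the plates and Ctsg 0, 0, 29 and 50. Mpo and Ctsg thus differed between the same pairs of plates. Csf3r had 0, 215, 6 and 21 UMIs, and Prtn3 had 116, 133, 139 and 243. Elane and S100a9 had 10 and 3 UMIs in all. The 5 megakaryocyte markers summed to 613, 128, 67.9 and 154 CPM in KO cells and 725, 162, 47.2 and 74.4 CPM in WT cells, so that 350W alone was high. Most of that was Vwf, with 478 and 532 CPM in the KO and WT cells of 350W. The 9 HSC markers summed to 1574, 1439, 1087 and 960.0 CPM in KO cells and 1661, 1535, 1237 and 967 CPM in WT cells, higher in 350W and 351W than in the other plates. Hlf, Procr, Mllt3 and Gata2 followed that sum in both genotypes, Mecom and Slamf1 in WT cells only and Ly6a in KO cells only. Meis1 was instead highest in 352W, at 353 CPM in KO and 343 CPM in WT cells. Kit did not follow the sum, at 195 to 262 CPM in KO and 200 to 261 CPM in WT cells. Whether the makeup of the plates bears on the Hoxb levels was not tested, and fewer cells of a type and less RNA per cell cannot be told apart in these sums.

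**Figure D3:**
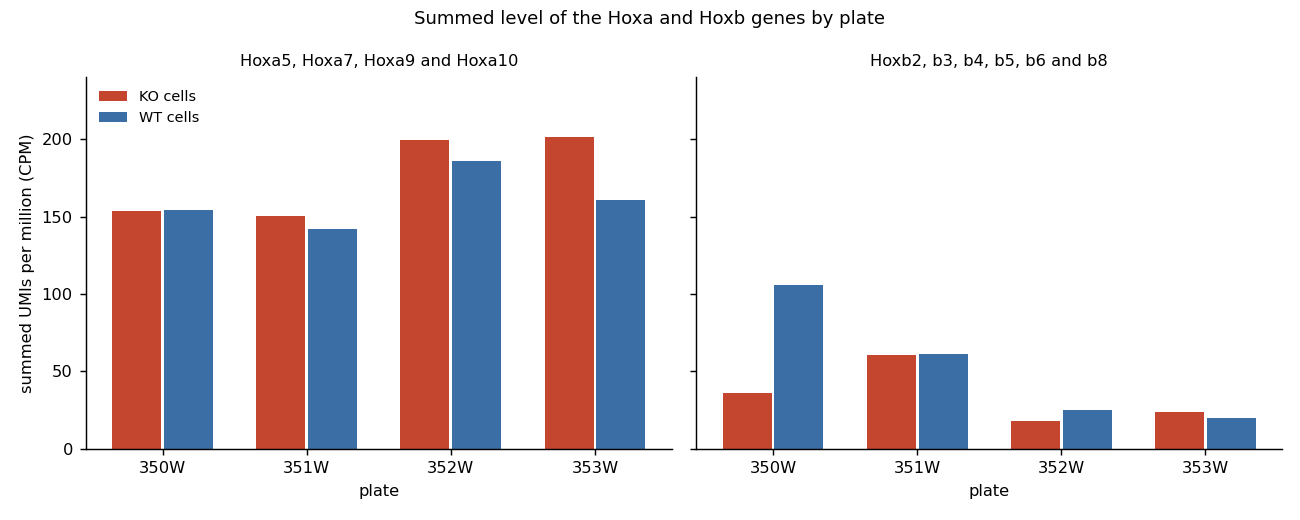
Summed level (y axis, CPM) of the 4 Hoxa genes (left) and the 6 Hoxb genes (right) in the KO and WT cells of each plate (x axis). The Hoxa sums lie between 150 and 201 CPM in KO cells and between 142 and 186 CPM in WT cells, and the Hoxb sums are below 26 CPM in 352W and 353W in both genotypes.

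A UMI of any of the 10 genes was found in 112 of 335 KO cells (33.4%) and 151 of 381 WT cells (39.6%). By plate the shares were 21.7, 34.8, 29.7 and 48.8% in KO cells and 39.0, 39.6, 36.8 and 43.2% in WT cells, lower in KO cells of 3 plates. KO cells were also shallower in every plate. Thinned to 1500 UMIs per cell, which kept 307 of 335 KO and 376 of 381 WT cells, the shares were 23.1% in KO cells and 22.9% in WT cells, and by plate 19.05, 25.3, 23.4 and 25.0% in KO cells and 25.5, 25.3, 20.2 and 20.4% in WT cells. After thinning, KO cells were lower in 350W and higher in the other 3 plates, by little in 351W.

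**Figure D4:**
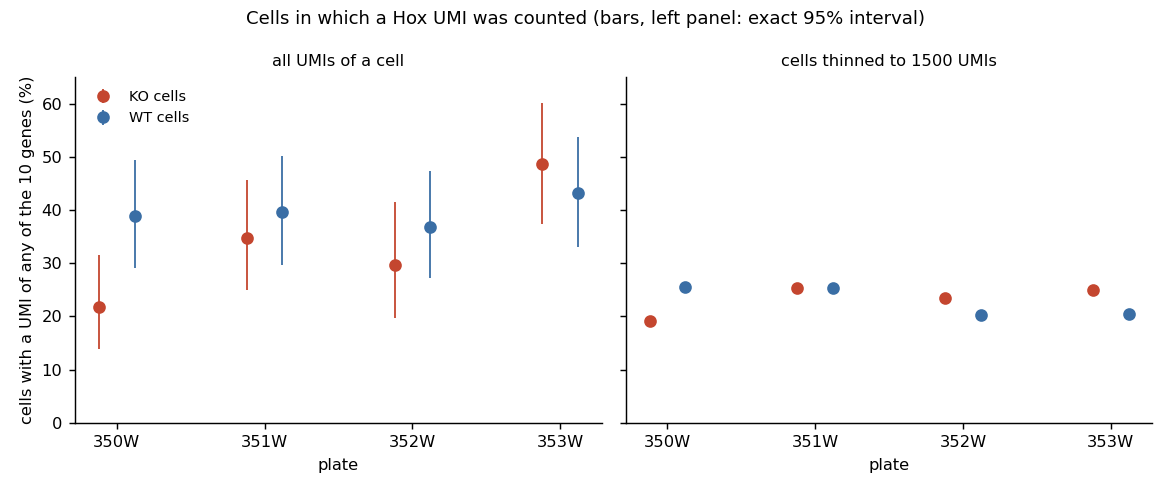
Share of cells with a UMI of any of the 10 Hox genes (y axis, percent) in the KO and WT cells of each plate (x axis), before thinning (left, with exact 95% binomial intervals that cover counting error only) and after thinning each cell to 1500 UMIs (right). Before thinning the KO shares run between 21.7 and 48.8% and the WT shares between 36.8 and 43.2%; after it all 8 lie between 19.05 and 25.5%.

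Few cells held more than 1 of the genes. Of the 263 cells with any, 212 held 1 gene, 47 held 2 and 4 held 3 or more, the most being 4. A Hoxa and a Hoxb gene were counted together in 29 cells. At equal depth another of the genes was found in 9 of 72 cells with a Hoxa9 UMI (12.5%, exact 95% binomial interval 5.88 to 22.4%) and in 85 of 611 cells without one (13.9%, 11.3 to 16.9%). These intervals overlap, but the plates differed in direction. By plate it was 3 of 14, 0 of 11, 6 of 25 and 0 of 22 Hoxa9 cells in 350W to 353W. Among cells without a Hoxa9 UMI it was 26 of 164, 34 of 167, 9 of 133 and 16 of 147. The share was thus higher in the Hoxa9 cells of 350W and 352W and lower in those of 351W and 353W.

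Summed over the 10 genes, KO cells had 189, 211, 217 and 225 CPM and WT cells 260, 203, 211 and 180 CPM. The KO to WT ratio was 0.729 in 350W, 1.04 in 351W, 1.03 in 352W and 1.25 in 353W, with a geometric mean of 0.994 and an SD of 0.32 on the log2 scale. The sum thus did not move one way over the plates, and its mean lay on either side of 1 under different settings.

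For the test of KO against WT, UMIs were summed per plate and genotype and fitted over all genes with edgeR's quasi-likelihood test, with the plate as a block. Of 6541 genes tested, 6 passed an adjusted p of 0.05 (0.0917%), 2 of them higher (0.0306%) and 4 lower (0.0612%) in KO cells, and 6.08% had an unadjusted p below 0.05. The count of called genes was 0 with no replicate block, 12 without 352W and 2 without 353W. Of the 10 Hox genes, 2 had enough UMIs to enter, and neither passed, adjusted or unadjusted. Hoxa9 averaged 97.45 ± 29.0 CPM in KO cells and 82.6 ± 39.4 CPM in WT cells (SD, n = 4 plates each) and was higher in KO cells in 3 of 4 plates. Its log2 fold change was 0.30 (SE 0.237, adjusted p = 0.878 in edgeR). Hoxa7 averaged 33.3 ± 22.5 CPM in KO cells and 39.9 ± 19.0 CPM in WT cells, with KO cells lower in 2 plates and higher in 2. Its log2 fold change was -0.25 (SE 0.396, adjusted p = 0.958 in edgeR). Differences of this size were within the spread between plates, which does not show that the levels were equal.

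The other 8 genes were too low for that test. Their means over plates in CPM, KO cells and then WT cells (± SD, n = 4 each), were 21.3 ± 16.1 and 23.7 ± 9.39 for Hoxa5, 24.0 ± 17.5 and 14.4 ± 11.4 for Hoxa10, and 10.4 ± 10.5 and 19.4 ± 14.6 for Hoxb2. For Hoxb6 they were 9.06 ± 6.77 in KO cells and 9.27 ± 9.67 in WT cells. In a fit with no gene filter, edgeR gave Hoxb4 a log2 fold change of -1.73 (SE 0.835, unadjusted p = 0.0387, adjusted p = 0.992), and Hoxa10, Hoxb2 and Hoxa5 0.79, -0.84 and -0.27, each at an adjusted p of 0.992. None of the 10 was called there, and 13 of the 22 Hoxb4 UMIs of WT cells lay in 350W. Hoxa3, with the counts it shares with Hoxa5, had a log2 fold change of 0.39 (SE 0.406, adjusted p = 0.929 in edgeR).

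The partners of Hox proteins were on throughout. All 11 TALE cofactors, the Meis, Pbx and related homeobox genes whose proteins bind with Hox proteins, met the rule for on, and they summed to between 546 and 752 CPM in KO cells and between 551 and 715 CPM in WT cells. Meis1 had the most, with 168 ± 124 CPM in KO cells and 183 ± 110 CPM in WT cells (SD, n = 4 plates each), and Pbx3, Pbx2 and Meis2 were also among the highest. None of the 7 tested cofactors passed in edgeR, and their median log2 fold change was 0.19, against -0.004 over all genes tested.

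The regulators of Hox chromatin were measured as well. All 14 genes of the trithorax and MLL list were on, with Dpy30, Aff1, Aff4, Mllt3 and Kmt2a the highest. Kmt2a had 80.8 ± 58.6 CPM in KO cells and 68.3 ± 34.1 CPM in WT cells, and none of the 7 tested genes of that list passed in edgeR (median log2 fold change -0.14). Of 12 PRC2 genes 10 were on, led by Rbbp7, Jarid2, Rbbp4, Eed and Suz12, and 0 of 8 tested passed (median -0.16). Of 19 genes of Polycomb repressive complex 1 (PRC1), 16 were on, and 0 of 10 tested passed (median 0.10). They were led by Yaf2, Phc1, Phc2, Cbx6 and Pcgf3, with 257 of the 312 Phc2 UMIs in 351W. The 3 H3K27 demethylase genes Kdm6a, Kdm6b and Uty were on at lower levels, summing to between 41.9 and 67.7 CPM in KO cells and between 53.3 and 86.6 CPM in WT cells. Of the upstream genes, Gmnn was on, while Cdx2 and Cdx4, which switch on Hox genes in the embryo, had no UMI.

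Transcripts from between the Hox genes were also counted. Of 9 noncoding genes of the clusters, 4 were on: Hoxaas3, Hoxb3os, Hoxb5os and Hoxd3os1. Hoxaas2 had 40 UMIs, of which 39 lay in 351W, and so was not.

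Finally, the genes whose levels followed the Hox genes most closely over the 8 sums were listed, among 1868 genes with a mean of at least 100 CPM. For Hoxa9 these were Gm13092 (Spearman rho 0.976), Fmn1 (0.952), and Ndufb8, Atp5j and Cd34 (0.929 each). For the sum of the 10 genes the closest was Lyl1 (0.905), a basic helix-loop-helix factor of stem and progenitor cells. For Hoxa7 the closest were Pigu and Gm12005 (0.929 each), and for Hoxa5 Rpl7 (0.881). For Hoxa10 it was Rpl9-ps2 (1), for Hoxb2 Tmbim4 (0.905), for Hoxb4 Cpq (0.946) and for Hoxb6 Arih1 (0.976). The 8 points share 4 plates and their depth, and with so many candidates such values are a description only.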

How the data were processed

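The MARS-Seq tables, 1 per plate, hold whole-number counts per gene and well, deposited by the authors without normalization and taken as UMI counts because the labels name the protocol. The submitters' processing notes name GRCm38.p4 and FastQC; which aligner and counter were run is not given in the sources used here. IDs were matched to symbols for 25714 of 25832 genes, and genes that a table does not list count as 0 there. Wells under 500 UMIs were left out. Counts were summed per plate and KO or WT name prefix, and CPM used those totals. Intervals are exact Poisson or binomial intervals at 95% and, like the floor of 3 counts, cover counting error only. Tests used edgeR 4.0.16 (filterByExpr, TMM, quasi-likelihood, plate as a block, Benjamini-Hochberg adjustment over all genes tested) in R 4.3.3, which was checked on simulated data, and DESeq2 1.42.0 as an alternative. The rest was computed in Python 3.11.15 with scipy 1.17.1.

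The rule for named genes was all 10 Hox genes, other Hox genes with a UMI, the 5 highest of each regulator list and those called, other Polycomb targets that were on, and the 5 likest genes; a gene that this rule names is not reported here. The 10 genes, all lists and the block were chosen with earlier results of these data known. Both genotypes of a plate share its number, which is the pairing used in the block. The H3K27me3 region lists are on another build (mm9) than the gene table and were not used here. Bulk RNA-seq and ATAC-seq were not analysed here.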

Additional observations from a re-analysis of the deposited data

Results flagged for a closer look

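Among the 28 sets of 4 plates with values to compare (each gene, the summed levels and the share of cells, in KO or WT cells), 4 had 1 plate far from the other 3 by Dixon's criterion at the 95% level, which chance gives in about 1 of 20 sets. Hoxa5 in KO cells was at 45.3 CPM in 352W, with the other plates between 10.5 and 16.0 CPM. Hoxb5 in KO cells was at 19.2 CPM in 351W and at 0 elsewhere, Hoxb5 in WT cells at 6.41 CPM in 350W and at 0 elsewhere, and Hoxb8 in WT cells at 5.08 CPM in 351W and at 0 elsewhere. Those 3 values rest on 6, 2 and 2 UMIs. With 0 in the other 3 plates, any value above 0 meets the criterion, so the rate of 1 in 20 does not apply to them. In the 52 wells under 500 UMIs, which were left out, 4 UMIs of the 10 genes were counted among 16463, or 243 CPM (exact 95% Poisson interval 66.2 to 622), against 562 UMIs, or 210 CPM, in the kept cells.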

How the results depend on the processing

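Of 43 alternatives for the main results, 29 stayed within 1.5 times or 1 SD of the reported value. The 7 genes on became 4 in cells thinned to 1500 UMIs (Hoxa5, Hoxa7, Hoxa9, Hoxa10), 4 with more than 3 UMIs asked in all 4 plates (Hoxa5, Hoxa7, Hoxa9, Hoxb2), 4 at 10 UMIs, and between 4 and 6 when 1 plate was left out. The share of cells with a UMI of any of the 10 genes was 22.9% in thinned cells. The 6 genes called in edgeR became 0 with no replicate block (86 unadjusted), 1 in DESeq2 with the block (63 unadjusted), 26 with no gene filter, 3 with all cells, 2 in thinned cells and 2 without wells of over 100 immunoglobulin UMIs. Leaving out 1 plate gave between 2 (without 353W) and 12 (without 352W). Thinning lowers the UMIs by construction. For genes on, asking for 10 UMIs, for all 4 plates, or for all 3 plates left when 1 was left out made the rule stricter by construction. The cause of the other shifts was not tested. Neither Hoxa9 nor Hoxa7 was called in any alternative in which it was tested, 23 results in all, and each kept its sign, with log2 fold changes of 0.17 to 0.53 for Hoxa9 (adjusted p 0.771 to 0.9999 in edgeR or DESeq2) and -0.52 to -0.04 for Hoxa7 (0.939 to 0.9999). The KO to WT ratio of the sum ran between 0.886 and 1.16. Leaving out each gene's highest well per plate and genotype, chosen after seeing the data, put Hoxa5 at 9.22 CPM in KO and 12.2 CPM in WT cells (reported 21.3 and 23.7), Hoxa7 at 18.0 and 29.1 (33.3 and 39.9), Hoxb4 at 1.31 and 6.22 (2.76 and 16.9) and Hoxa9 at 76.0 and 71.5 (97.45 and 82.6). The levels of the other 6 genes fell as well. Depth limits the low genes. By the limit of 3 counts, 0 UMIs still allow up to 13.6 CPM in the KO cells of 352W and 9.62 CPM in the WT cells of 350W. The exact 95% Poisson intervals reach 16.7 and 11.8 CPM.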
